A study of Mus musculus with 12 samples.

Results

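The simple epithelial keratin genes *Krt7*, *Krt8*, *Krt18* and *Krt19* were followed in RNA-Seq counts of differentiating primary keratinocytes from newborn BALB/c mice. They were chosen by name, as the loci of the count table that carry one of these gene names, and made up 4 of the 21947 loci. All 4 passed the filter on low counts, and none was joined with another gene in the table. The cultures were grown at 0.05 mM calcium and differentiated at 0.12 mM. They received 75 pmol of an siRNA pool against *Sbsn* (siSbsn), 75 pmol of a non-targeting pool (siControl), or no siRNA. *Sbsn* is the gene of the envelope-associated protein suprabasin. Transfected cultures were harvested for RNA 48 hours after the siRNA. For the cultures without siRNA, the sources used here state neither a harvest time nor whether they received transfection reagent. The 12 libraries come in 2 numbered batches, with 2 per condition in batch 1 and, in batch 2, 3 siControl and 3 siSbsn but none without siRNA. The labels do not say what a batch was, or whether the libraries came from separate cultures or animals, so the p-values measure only the spread between these libraries, which may be technical.

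Keratins form intermediate filaments by pairing a type I with a type II protein. *Krt8* and *Krt7* encode type II keratins, *Krt18* and *Krt19* encode type I keratins, and KRT8 with KRT18 is the typical pair of simple epithelia such as gut, liver and glands. Stratified epidermis is built mainly on the pairs KRT5 with KRT14 in basal cells and KRT1 with KRT10 above them, and simple keratins are there known mostly from Merkel cells, glands and hair follicles. Cultured keratinocytes can also express simple keratins.

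*Krt7*, *Krt8* and *Krt18* lie in the type II keratin cluster on chromosome 15 of mm10, where *Krt18* is the type I gene next to its partner. *Krt7* was counted over chr15:101412403-101427806 on the plus strand (9 exons, 1586 exonic bases), *Krt8* over chr15:101996711-102004342 on the minus strand (9 exons, 1805 exonic bases) and *Krt18* over chr15:102028216-102032026 on the plus strand (7 exons, 1400 exonic bases). *Krt8* and *Krt18* are 23.9 kb apart and point away from each other, while *Krt7* is 569 kb from *Krt8*. *Krt19* was counted over chr11:100140811-100145926 on the minus strand (6 exons, 1381 exonic bases), inside the type I cluster. The counting kept uniquely aligned reads. Of all stretches of 50 bases in the exons of *Krt8*, 32.3% also occur in the exons of other annotated genes, among them the processed pseudogene *Krt8-ps*, so the counting can lower the level of *Krt8*. The shared part was 0.74% for *Krt18* and 0 for *Krt7* and *Krt19*, and the sources used here do not give the read length.

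The 250 bases before the RefSeq start of the 3 genes on chromosome 15 are shown, on GRCm38.p6 (the assembly named mm10). They are printed in the 5′ to 3′ direction of each gene. *Krt19* had no entry. Capitals mark matches on either strand to 5 motifs: TATAAA, the AP-1 letters TGANTCA, the GC box GGGCGG, the ETS core AGGAAG and the AP-2 letters GCCNNNGGC. The windows are chr15:101412153-101412402 (plus strand) for *Krt7*, chr15:102004343-102004592 (minus strand) for *Krt8* and chr15:102027966-102028215 (plus strand) for *Krt18*. The GENCODE transcripts that gave the exonic lengths start inside these windows, at base 101412402 for *Krt7*, 102004482 for *Krt8* and 102028180 for *Krt18*. The windows thus include bases that GENCODE places within the transcript.
Krt7: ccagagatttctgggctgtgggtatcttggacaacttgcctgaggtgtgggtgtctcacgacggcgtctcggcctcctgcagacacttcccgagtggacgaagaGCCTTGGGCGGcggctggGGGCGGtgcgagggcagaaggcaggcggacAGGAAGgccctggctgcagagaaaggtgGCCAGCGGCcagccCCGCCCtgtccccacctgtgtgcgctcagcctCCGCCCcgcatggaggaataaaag
Krt8: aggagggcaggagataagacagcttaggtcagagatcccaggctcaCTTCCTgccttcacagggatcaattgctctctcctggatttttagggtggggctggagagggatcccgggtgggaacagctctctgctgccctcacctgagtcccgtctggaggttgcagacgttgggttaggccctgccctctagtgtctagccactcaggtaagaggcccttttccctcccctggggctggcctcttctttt
Krt18: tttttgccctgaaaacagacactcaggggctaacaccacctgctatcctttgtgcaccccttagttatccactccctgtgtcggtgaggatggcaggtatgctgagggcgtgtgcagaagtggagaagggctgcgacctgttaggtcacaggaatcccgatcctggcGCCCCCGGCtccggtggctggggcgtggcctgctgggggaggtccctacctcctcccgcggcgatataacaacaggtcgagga
The *Krt7* window held 4 GC boxes, 1 ETS core and 2 AP-2 matches, one of which overlaps a GC box. The *Krt8* window held 1 ETS core, and the *Krt18* window held 1 AP-2 match. None of the 3 windows held TATAAA or TGANTCA. Over 32817 promoter windows of this length, 32.7% held a GC box, 29.5% the ETS core, 13.7% the AP-2 letters, 12.4% TATAAA and 6.75% the AP-1 letters. No motif was common to the 3 windows, and each match is of a kind found in many promoters.

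Several facts of the whole series touch the values below. Total counts per library ranged from 27934836 to 49553923, and replicates of 1 condition in 1 batch always differed by more than sampling noise, in 9 of 9 pairs (chi-square per degree of freedom 4.47 to 204, the largest between the 2 siControl libraries of batch 1). *Sbsn*, the target, was at 371, 332 and 459 CPM (counts per 1000000 of the normalized library size) in the siControl and 124, 125 and 121 CPM in the siSbsn libraries of batch 2. In batch 1 the siControl libraries had 1190 and 1360 CPM, 1960 CPM were found in the library labelled siSbsn batch 1 replicate 1 and 696 CPM in siSbsn batch 1 replicate 2. The siSbsn label therefore went with a lower *Sbsn* level in all 3 siSbsn libraries of batch 2 but in only 1 of the 2 in batch 1. The basal keratinocyte markers *Krt14* and *Krt5* were abundant in every library, with 9610 to 28800 CPM and 6490 to 18000 CPM. The suprabasal keratins *Krt1* (26.4 to 335 CPM) and *Krt10* (15.9 to 73.8 CPM) were far lower.

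The first question was how much simple keratin these cultures expressed. *Krt7* was the highest member, with 51.8 to 132 CPM (median 71.2) over the 6 libraries of batch 1 and 20 to 30.2 CPM (median 23.1) over the 6 of batch 2. *Krt18* had 27.3 to 66 CPM (median 32.2) in batch 1 and 8.96 to 18 CPM (median 12) in batch 2. *Krt8* had 17.1 to 30.7 CPM (median 19) and 2.66 to 5.19 CPM (median 3.72). *Krt19* was lowest, with 2.82 to 6.99 CPM (median 3.72) and 1.86 to 3.22 CPM (median 2.03). No member was at 0 in any library, and the counts behind these levels ran from 54 for *Krt19* in siSbsn batch 2 replicate 5 to 3676 for *Krt7* in siControl batch 1 replicate 1, so the values of *Krt19* carry the largest counting error.

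**Figure D1:**
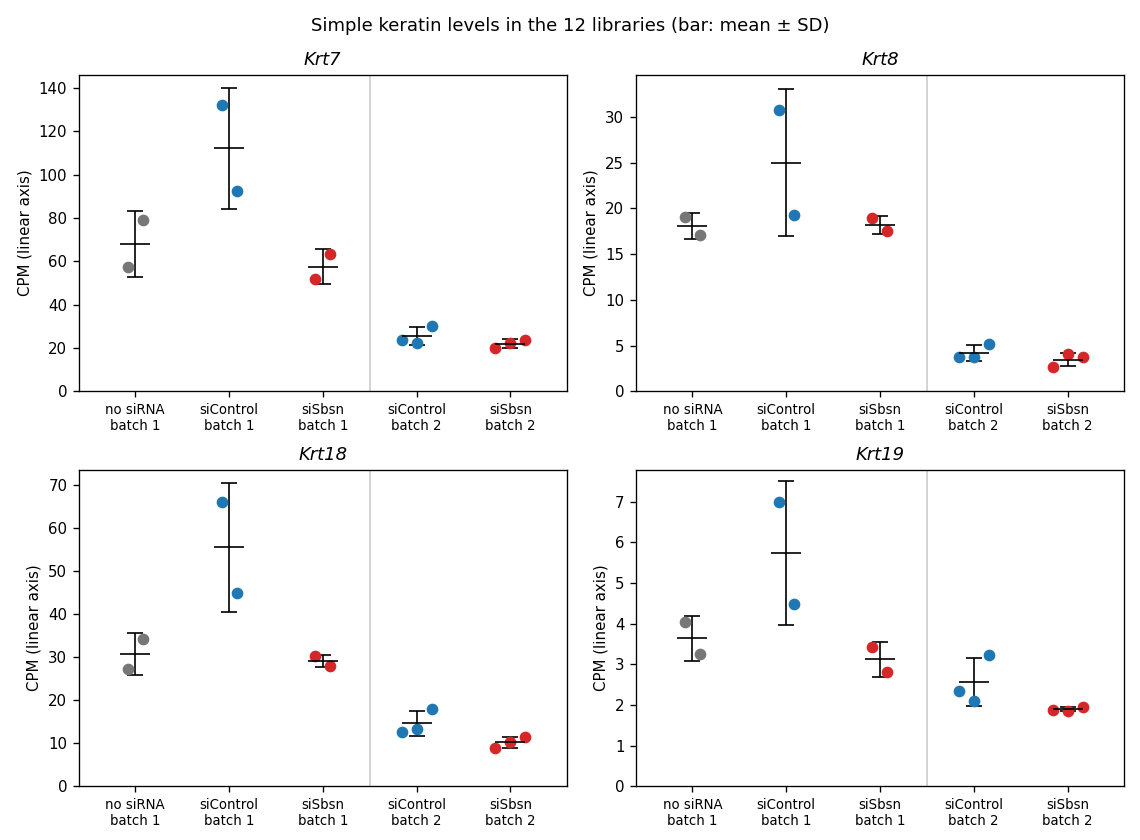
Each point is 1 library, with CPM on a linear axis that starts at 0, one panel per gene and the 5 combinations of condition and batch along the horizontal axis. Bars show the mean and SD. In all 4 panels siControl batch 1 replicate 1 is the highest library, and batch 2, right of the grey line, is lower than batch 1 with an overlap only for *Krt19*.

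Levels of different genes were compared per kb of exon, where each library's CPM was divided by the exonic length. In all 6 libraries of each batch the order was *Krt7*, *Krt18*, *Krt8*, *Krt19*. *Krt7* was 1.52 to 2.04 times *Krt18* in batch 1 and 1.48 to 1.98 times in batch 2, and the ranges of these neighbours overlapped between libraries in both batches. *Krt18* was 1.84 to 3 times *Krt8* in batch 1 and 3.22 to 4.56 times in batch 2, with no overlap of their ranges. *Krt8* was 3.28 to 4.75 times *Krt19* in batch 1 without overlap, but only 1.08 to 1.67 times in batch 2, where the ranges overlapped.

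Against the epidermal keratins these levels were small. Among 44 keratin loci that carry a single gene name, *Krt17*, *Krt14*, *Krt5*, *Krt6a* and *Krt16* held the first 5 places in both batches, with means per kb from 2970 to 17900 in batch 1 and from 1420 to 12800 in batch 2. These encode the keratins of basal and of activated keratinocytes. *Krt7* averaged 50.1 CPM per kb in batch 1 and 15 in batch 2 (places 7 and 9), *Krt18* averaged 27.4 and 8.85 (places 9 and 10), *Krt8* averaged 11.3 and 2.13 (places 12 and 11) and *Krt19* averaged 3.02 and 1.61 (places 16 and 13). The members' summed share of the keratin level per kb lay between 0.083% and 0.294% over the 12 libraries. In batch 1 *Krt7* stood next to *Krt1* (47.6 CPM per kb), the suprabasal keratin of differentiating epidermis, and *Krt18* was above *Krt10* (15.7), while in batch 2 *Krt10* was at 30.2. These are batch means, and the places need not hold in each library. Over the libraries of batch 1, *Krt1* ran from 26.4 to 335 CPM and *Krt10* from 15.9 to 70.2 CPM. *Krt80* (1590 CPM on average, without correction for length) shares its locus with another transcript and was left out of this order.

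**Figure D2:**
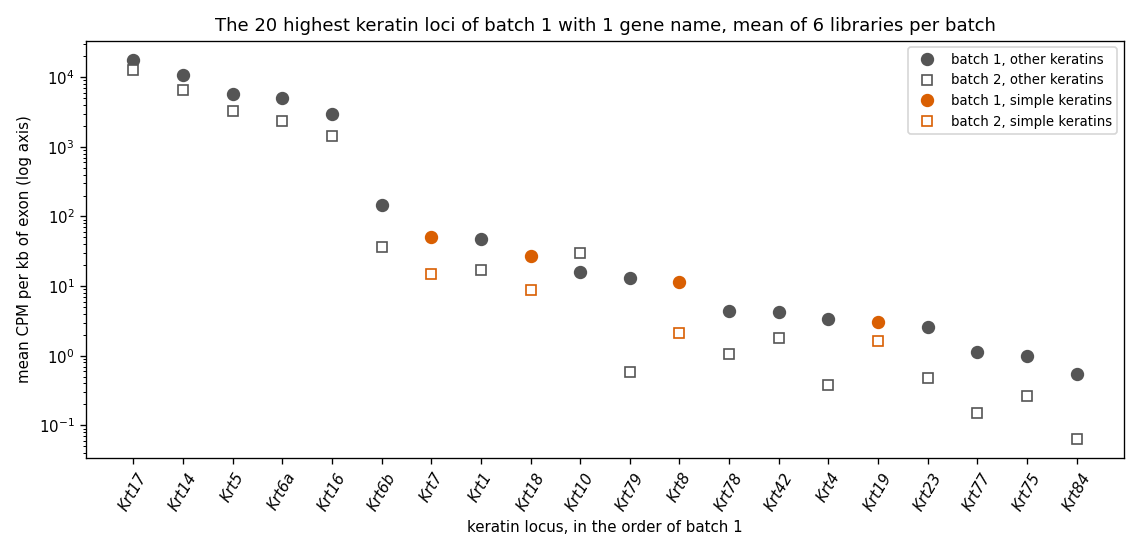
The mean level per kb of exon is drawn on a log axis for the 20 highest single-gene keratin loci of batch 1, with filled circles for batch 1 and open squares for batch 2 and the simple keratins in orange. The simple keratins sit below the epidermal group from *Krt17* to *Krt6b*, and every keratin drawn except *Krt10* is lower in batch 2.

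The main comparison asked whether siSbsn changed the simple keratins relative to siControl. All 4 members had lower fitted levels in siSbsn, and none passed the test over all loci. In batch 1, the siControl libraries had 66 and 44.8 CPM of *Krt18* and the siSbsn libraries 30.1 and 28 CPM. In batch 2, siControl had 12.6, 13.2 and 18 CPM and siSbsn 8.96, 10.2 and 11.4 CPM. Both batches therefore had every siSbsn library below every siControl library. With batch in the model the log2-fold change of *Krt18* was -0.68 (standard error 0.15), which put siSbsn at 62.4% of siControl, with an unadjusted p of 0.000968 and q = 0.256 from edgeR's quasi-likelihood test.

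*Krt19*, a small type I keratin that lacks most of the tail domain, had 6.99 and 4.49 CPM with siControl and 3.42 and 2.82 CPM with siSbsn in batch 1. In batch 2 it had 2.35, 2.09 and 3.22 CPM with siControl and 1.88, 1.86 and 1.96 CPM with siSbsn. Its libraries did not overlap within either batch, like those of *Krt18*, and the share of all 13211 loci with siSbsn below siControl in this way in both batches was 4.12%. The log2-fold change of *Krt19* was -0.60 (standard error 0.18), with an unadjusted p of 0.00652 and q = 0.256 by edgeR.

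*Krt7*, a type II keratin of glandular and ductal epithelia, had 132 and 92.6 CPM with siControl and 51.8 and 63.4 CPM with siSbsn in batch 1. In batch 2 it had 23.8, 22.3 and 30.2 CPM with siControl and 20, 22.5 and 23.8 CPM with siSbsn, so that the conditions were apart in batch 1 and overlapped in batch 2. Its log2-fold change over both batches was -0.50 (standard error 0.17), with an unadjusted p of 0.0141 and q = 0.256 by edgeR.

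*Krt8*, the type II partner of *Krt18*, had 30.7 and 19.3 CPM with siControl and 18.9 and 17.5 CPM with siSbsn in batch 1, where the lower siControl library was only just above siSbsn. In batch 2 it had 3.71, 3.73 and 5.19 CPM with siControl and 2.66, 4.07 and 3.72 CPM with siSbsn, and the conditions overlapped. Its log2-fold change was -0.35 (standard error 0.17), with an unadjusted p of 0.0625 and q = 0.268 by edgeR. *Krt8* thus had the smallest difference of the 4 members and *Krt18* the largest in the same fit.

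A call needed q under 0.05 and a log2-fold change beyond 0.5 in either direction. edgeR called 0 of the 4 members and 0 of 13211 loci (0%). The smallest q was 0.256, and 2501 loci had an unadjusted p under 0.05. Of the 4 members, 3 had an unadjusted p under 0.05 in the lower direction, against 9.38% of all loci tested, and the members' median log2-fold change was -0.55 against 0.007 over all loci. DESeq2 called 1 member, *Krt18* (log2-fold change -0.67, q = 0.00971), among 90 of 12703 loci (0.708%), 42 of them lower in siSbsn (0.331%). limma-voom called none. Permuting the labels within batches (exact test, two-sided) gave p = 0.0167 for *Krt18* and for *Krt19*, the smallest p that its 120 arrangements allow, and p = 0.0833 for *Krt7* and p = 0.133 for *Krt8*. For *Krt18* and *Krt19* this p follows from their non-overlap in both batches, which 4.12% of loci shared, so it adds no separate result.

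The size of the difference moved with 1 library and with a correction for gene length. Without siControl batch 1 replicate 1 the log2-fold change of *Krt8* was -0.21, and that of *Krt7*, *Krt18* and *Krt19* was -0.36, -0.55 and -0.45. Each library's trend of counts on gene length was also removed, with the longest annotated transcript of a locus as its length. These lengths are not the exonic lengths printed above. *Krt18* then came to -0.43, *Krt19* to -0.37 and *Krt8* to -0.16, while *Krt7* came to -0.56. The sign of all 4 members stayed the same whichever of the 10 libraries was left out, and edgeR called none of them in any of these fits.

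**Figure D3:**
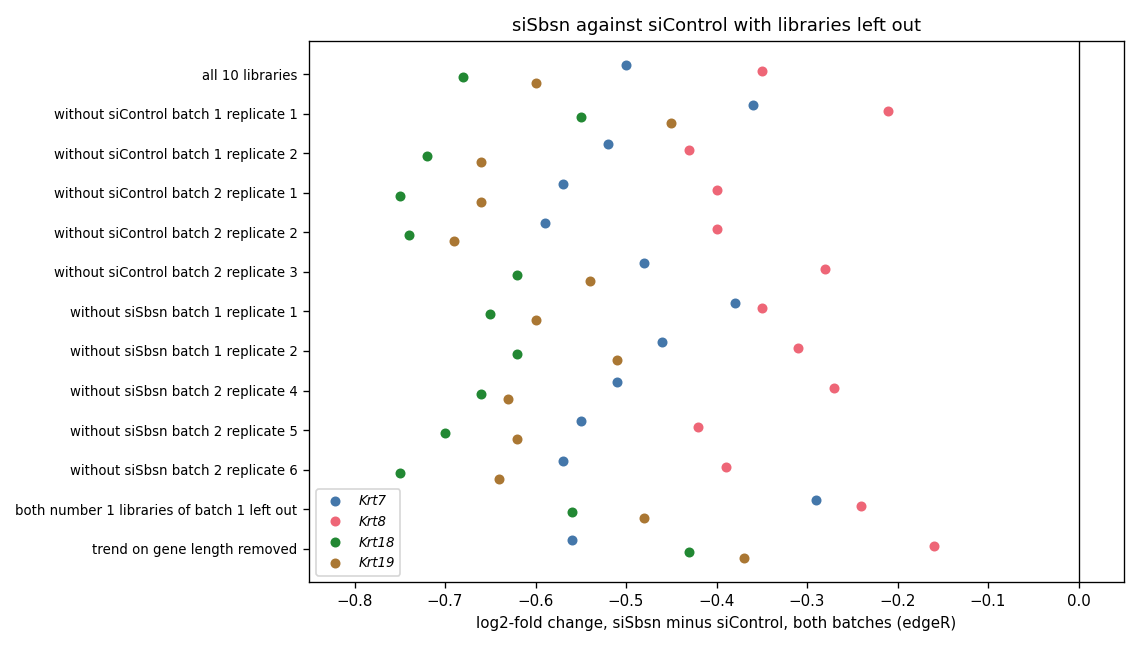
Each point is the log2-fold change of 1 gene, siSbsn minus siControl over both batches, from edgeR. The rows give the fit of all 10 libraries, the fits with 1 library left out, the fit without both number 1 libraries of batch 1 (an alternative chosen after seeing the data) and the fit after the length trend was removed. All points lie left of 0, between -0.75 and -0.16.

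Within batch 1 the differences were larger than within batch 2 in the fitted values. In batch 1 alone the log2-fold changes were -1.0 for *Krt7* (standard error 0.29, q = 0.423), -0.96 for *Krt18* (0.30, q = 0.423), -0.91 for *Krt19* (0.38, q = 0.423) and -0.49 for *Krt8* (0.32, q = 0.487), all from edgeR. None of the 4 members and none of 12899 loci (0%) was called. At an unadjusted p under 0.05, 3 members were lower, against 4.79% of loci, and 1512 loci differed in either direction. DESeq2 called 149 loci (1.21%) in this batch but none of the 4 members. Every siSbsn library was below every siControl library for all 4 members, which held for 25.9% of the loci tested there. The calls in this batch changed with the model and with 1 library. With the replicate number as a block, which left 1 residual degree of freedom, edgeR called 1808 loci, 4.5% of the loci tested being called lower, among them *Krt7* (-0.97, q = 0.00247) and *Krt18* (-0.93, q = 0.00599). *Krt19* (-0.87, q = 0.0654) and *Krt8* (-0.44, q = 0.277) were not called in that fit. Without siControl batch 1 replicate 2, the lower of the siControl pair, and with no block edgeR called 3399 loci, with 12.8% called lower, among them *Krt7* (-1.26, q = 0.00285), *Krt18* (-1.24, q = 0.00322), *Krt19* (-1.22, q = 0.0264) and *Krt8* (-0.81, q = 0.0369). In this second fit the remaining siControl library was assumed to vary like the siSbsn libraries. Without siControl batch 1 replicate 1 the values were -0.69, -0.63, -0.54 and -0.09 in the same order, and none was called.

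In batch 2 alone, where *Sbsn* was lower in every siSbsn library, the log2-fold changes were -0.51 for *Krt18* (standard error 0.14, unadjusted p = 0.00515, q = 0.404), -0.40 for *Krt19* (0.17, q = 0.489), -0.28 for *Krt8* (0.19, q = 0.564) and -0.19 for *Krt7* (0.11, q = 0.53) by edgeR. None of the 4 members was called, and *Sbsn*, at -1.64 on the log2 scale, was the only locus called of 12924 (0.00774%). *Krt18* and *Krt19* had an unadjusted p under 0.05, as did 5.69% of loci in the lower direction. Every siSbsn library was below every siControl library for *Krt18* and *Krt19*, which held for 9.15% of the loci tested. Without siControl batch 2 replicate 3, the highest library of that batch for all 4 members, the value of *Krt7* was -0.07, that of *Krt19* -0.23 and that of *Krt18* -0.35. Without siSbsn batch 2 replicate 4 the value of *Krt8* was -0.10.

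The interaction term, which subtracts the siSbsn difference of batch 1 from that of batch 2, gave 0.79 for *Krt7* (standard error 0.26, unadjusted p = 0.0124, q = 0.281), 0.48 for *Krt19* (0.34, q = 0.481), 0.43 for *Krt18* (0.28, q = 0.448) and 0.20 for *Krt8* (0.34, q = 0.769) by edgeR. No member and no locus of 13419 was called (0%). *Krt7* was the only member at an unadjusted p under 0.05, against 7.28% of loci in that direction and 1991 loci in either, and DESeq2 called 165 loci (1.34%) but no member. Without siControl batch 1 replicate 2, *Krt7* came to 1.01 with q = 0.009 and was called, among 4362 loci (13.7% called higher). In the same fit *Krt8* came to 0.48, *Krt18* to 0.68 and *Krt19* to 0.76, none of them called. Without siControl batch 1 replicate 1 *Krt7* came to 0.50, *Krt18* to 0.12 and *Krt19* to 0.13, *Krt8* changed sign to -0.18, and none was called.

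**Figure D4:**
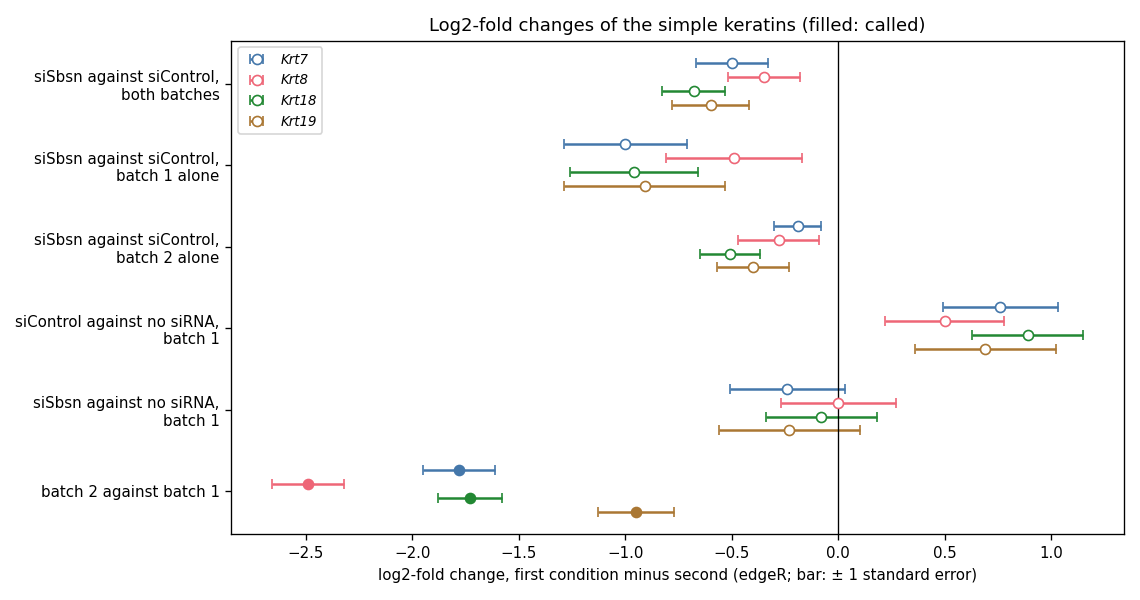
Log2-fold changes of the 4 genes from edgeR, first condition minus second, are drawn with bars of 1 standard error for 6 comparisons, with filled points where a gene was called. Only the points of batch 2 against batch 1 are filled. The values of siSbsn against siControl are below 0 and those of siControl against no siRNA above 0. Both sets share the siControl libraries of batch 1, except for the values of batch 2 alone.

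The libraries without siRNA, present in batch 1 only, allowed siControl to be set against cultures that received no siRNA. *Krt18* was at 27.3 and 34.2 CPM without siRNA, *Krt7* at 57.3 and 79 CPM, *Krt8* at 19.1 and 17.1 CPM and *Krt19* at 4.03 and 3.25 CPM. For all 4 members both siControl libraries were above both of these, which held for 27.2% of loci, and for *Krt8* the gap between 19.3 and 19.1 CPM was far inside the spread of the replicates. The log2-fold changes of siControl against no siRNA were 0.89 for *Krt18* (standard error 0.26, unadjusted p = 0.0112, q = 0.308), 0.76 for *Krt7* (0.27, q = 0.308), 0.69 for *Krt19* (0.33, q = 0.314) and 0.50 for *Krt8* (0.28, q = 0.346) by edgeR. It called 0 of the 4 members and 0 of 13176 loci (0%). Without adjustment *Krt7* and *Krt18* had p under 0.05, as did 8.77% of loci in the higher direction and 2116 loci in either, and DESeq2 called 25 loci (0.176%) but no member. Without siControl batch 1 replicate 2 edgeR called *Krt7* (1.02), *Krt8* (0.82) and *Krt18* (1.16), among 3213 loci (12.8% called higher), and without siControl batch 1 replicate 1 the values of *Krt7*, *Krt8*, *Krt18* and *Krt19* were 0.45, 0.10, 0.55 and 0.31 and none was called.

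Against the same libraries without siRNA, the log2-fold changes of siSbsn in batch 1 were -0.24 for *Krt7* (standard error 0.27), -0.23 for *Krt19* (0.33), -0.08 for *Krt18* (0.26) and 0.00 for *Krt8* (0.27), with q = 1 for each by edgeR. None of 13176 loci was called (0%), with 23 at an unadjusted p under 0.05, and DESeq2 also called 0. In batch 1, then, both siControl libraries were above the other 4 libraries for all 4 members, which held for 21.1% of loci, while the libraries of siSbsn and no siRNA overlapped for *Krt7*, *Krt8*, *Krt18* and *Krt19*. This comparison shares its libraries with both comparisons above it. Batch 2 had no library without siRNA.

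The largest difference in the simple keratins was between the batches, which the labels name only by number. With treatment in the model and the 10 siControl and siSbsn libraries, *Krt8* had a log2-fold change of -2.49 for batch 2 against batch 1 (standard error 0.17, q = 3.66e-06), at 17.8% of its level in batch 1. *Krt7* had -1.78 (0.17, q = 2.88e-05), *Krt18* had -1.73 (0.15, q = 1.54e-05) and *Krt19* had -0.95 (0.18, q = 0.00154), all from edgeR. All 4 members were called lower, as were 21.6% of 13211 loci, and 38% were called in either direction. Every library of batch 2 was below every library of batch 1 for *Krt7*, *Krt8* and *Krt18*, which held for 16.5% of loci. The ranges of *Krt19* overlapped, since siControl batch 2 replicate 3 (3.22 CPM) was above siSbsn batch 1 replicate 2 (2.82 CPM). In bulk RNA, fewer cells that express a gene and less RNA of it per cell cannot be told apart, here and in the comparisons above.

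The fitted batch differences were unequal in size, and the ratios between members were compared next. *Krt8* was 0.334 to 0.543 of *Krt18* per kb in the 6 libraries of batch 1 and 0.219 to 0.31 in those of batch 2, with no overlap. *Krt19* was 0.0964 to 0.15 of *Krt18* in batch 1 and 0.161 to 0.213 in batch 2, again with no overlap but in the other direction. The counting can lower the level of *Krt8*, as described above, and the sources used here give the read length of neither batch. Within batch 1 the *Krt8* ratio was 0.361 and 0.334 in siControl and 0.487 and 0.485 in siSbsn. In batch 2 it was between 0.219 and 0.229 in siControl and between 0.23 and 0.31 in siSbsn. Within each batch every siSbsn library was above every siControl library in this ratio, by a narrow margin in batch 2, and the ratios without siRNA (0.543 and 0.389) were also above siControl. In batch 2 the ratio of *Krt7* to *Krt18* was also higher in siSbsn (1.84 to 1.98) than in siControl (1.48 to 1.67). In batch 1 the *Krt7* ratio overlapped, at 1.52 and 2 in siSbsn and 1.77 and 1.82 in siControl. The ratio of the 2 type II members to the 2 type I members was 1.8 to 2.25 in batch 1 and 1.44 to 1.91 in batch 2. The ratios were not tested, and the share of other locus pairs whose ratios separate in these ways was not determined. The non-overlaps above are therefore descriptions only. Over both batches *Krt18* had the largest siSbsn difference of the members by edgeR (log2-fold change -0.68, against -0.35 for *Krt8* and -0.5 for *Krt7*). A ratio to *Krt18* can therefore be higher in siSbsn although its numerator is lower.

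**Figure D5:**
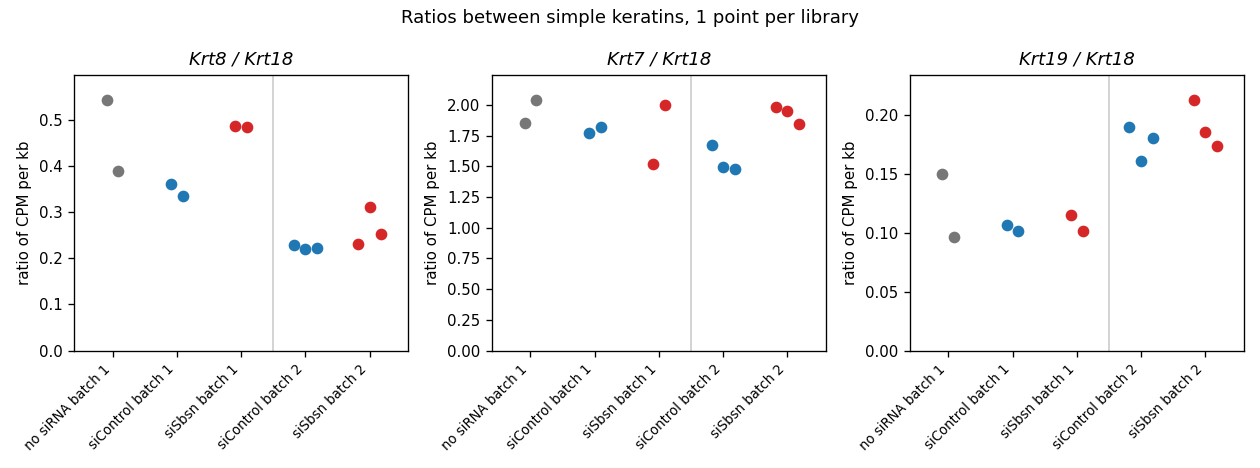
Ratios of CPM per kb to *Krt18* are drawn with 1 point per library, for *Krt8*, *Krt7* and *Krt19* from left to right, on linear axes that start at 0, with the 5 combinations of condition and batch along the horizontal axis. The *Krt8* ratio is lower and the *Krt19* ratio higher in all 6 libraries of batch 2 than in all 6 of batch 1.

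The other keratins were set beside the members from lists of type I and type II genes. Of 10 other type I keratins tested, edgeR called none between siSbsn and siControl. Their median log2-fold change was -0.16 with 6 below 0, and the 3 most abundant were at -0.28 (*Krt17*), -0.23 (*Krt14*) and -0.20 (*Krt16*). Of 12 other type II keratins tested, none was called and 3 were below 0. Their median was 0.38, and the 3 most abundant were at -0.11 (*Krt5*), 0.06 (*Krt6a*) and 0.25 (*Krt80*). Between batches, 6 of the 10 type I genes were called lower and 2 higher, where 21.6% of all loci were called lower and 16.4% higher. By edgeR, *Krt23* had -2.44 (q = 7.79e-06), *Krt16* had -1.19 (q = 0.000453), *Krt42* had -1.36 (q = 0.000936) and *Krt14* had -0.84 (q = 0.00227). *Krt20*, which with *Krt8* and *Krt18* marks Merkel cells, was higher by 1.01 (edgeR q = 0.0137). *Krt20* averaged only 0.45 CPM over all libraries and is also one of the Merkel cell markers below. Of the 12 type II genes, 10 were called lower and 0 higher, with the smallest q for *Krt78* (-2.0), *Krt6b* (-2.07), *Krt80* (-0.82), *Krt4* (-3.17) and *Krt75* (-1.93). The lower level of the simple keratins in batch 2 thus stood among lower levels of most keratins tested.

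Neighbours on the chromosome were mostly other keratins. Of 21 loci within 100 kb of a member, 12 were tested. edgeR called none of them between siSbsn and siControl, and their median was 0.19. At an unadjusted edgeR p under 0.05, 2 were higher in siSbsn (*Krt80* and *Krt84*, both neighbours of *Krt7*) and 0 lower. Over all 13211 loci, 2501 differed in either direction at this threshold. Between batches 7 were called lower and 0 higher, all of them keratins, namely *Krt80*, *Krt84*, *Krt4*, *Krt78*, *Krt79*, *Krt32* and *Krt14*. Over all loci 21.6% were called lower and 16.4% higher. *Krt79*, 56.4 kb from *Krt8*, had -4.24 (q = 0.000126). *Krt32*, like *Krt80*, was counted together with another transcript. The non-keratin genes *Eif4b* (0.46), *Tns2* (-0.10) and *Spryd3* (-0.08), which flank *Krt18*, were not called. Neighbours that are themselves members were not counted here.

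Proteins known to bind, fold or cleave keratins were taken as a list of 22 genes, all tested. None was called between siSbsn and siControl, with a median of -0.02. At an unadjusted edgeR p under 0.05, 5 genes were higher and 3 lower. Over all 13211 loci, 9.38% were lower at this threshold and 2501 differed in either direction. The values of this list are from the fit without the correction for gene length. The 3 most abundant were *Dsp*, which anchors keratin filaments at desmosomes (0.66, q = 0.256), *Sfn*, a 14-3-3 protein (-0.22), and *Ywhae*, another (-0.13). Between batches 4 were called higher and 6 lower, where 16.4% of all loci were called higher and 21.6% lower. The smallest q were those of *Ppl* (-1.02), *Evpl* (-0.69), *Dst* (1.20), *Tchp* (0.54) and *Ywhaz* (-0.73).

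Genes of simple and glandular epithelium other than keratins numbered 19, all tested. None was called between siSbsn and siControl, and the median was -0.03. At an unadjusted p under 0.05, 5 of the 19 were lower in siSbsn and 1 was higher, where 9.38% of all loci were lower. The 6 are named here after their values were seen. The claudins *Cldn7* (-0.82), *Cldn3* (-0.62) and *Cldn4* (-0.38), *Elf3* (-0.64) and *Spint2* (-0.33) were the lower ones, each with a q between 0.256 and 0.26 by edgeR, and *Esrp1* (0.25, q = 0.256) was the higher one. The 3 most abundant were *Cdh1* (0.22), *Cldn4* and *Anxa3* (-0.32). *Cdh1*, *Cldn3* and *Spint2* were counted in loci joined with another transcript, so their values belong to the joined loci. Between batches 9 were called lower and 2 higher. Over all loci 21.6% were called lower and 16.4% higher, which also applies to the lists that follow in this paragraph. The smallest q were those of *Epcam*, an adhesion molecule of simple epithelia (-1.72), *Ehf*, an epithelial ETS factor (-1.56), *Cldn3*, a tight junction claudin (-1.75), *Spint1* (-0.72) and *Elf3*, another epithelial ETS factor (-1.68). Transcription factors known to act on simple keratin genes numbered 16, all tested. None was called between siSbsn and siControl, with a median of 0.06, and 2 were higher and 3 lower at an unadjusted p under 0.05. The 3 most abundant loci were those of *Fosl2* (0.26), *Jun* (-0.11) and *Junb* (-0.35). *Junb* shares its locus with *Prdx2*, so neither its level nor its difference is its own. Between batches *Jun* (0.53), *Sp1* (1.22) and the locus of *Sp3* and other transcripts (0.69) were called higher and *Jund* (-0.86) lower. Of 9 other intermediate filament genes tested, none was called between siSbsn and siControl, with a median of -0.05, and 1 was higher and 0 lower at an unadjusted p under 0.05. The 3 most abundant loci were those of *Lmna* (-0.12), *Vim* (-0.05) and *Sync* (-0.06), the last joined with *Rbbp4*. Between batches 5 were called lower and 1 higher, with the smallest q for *Nes* (-1.66), the locus that joins *Ina* with *Nt5c2* (-0.80), the locus of *Lmnb1* and another transcript (-0.68), *Synm* (1.29) and *Vim* (-0.69). The counts of *Sync* and *Ina* cannot be told apart from those of *Rbbp4* and *Nt5c2*.

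Markers of cells that could bring simple keratins into a culture were summed in each library. The 9 Merkel cell markers all had counts and summed to between 5 and 7.11 CPM in every library, with *Piezo2* highest at 2.08 CPM on average and *Atoh1* at 1.14 CPM. Their sum was 5 to 5.3 CPM in siControl of batch 1 and 6.08 to 6.75 CPM in siSbsn of batch 1, and 8 tested markers had none called between siSbsn and siControl. Between batches 3 of these 8, among them *Krt20*, were called higher and 0 lower in batch 2, where 16.4% of all loci were called higher. Skin gland and duct markers (8 genes, all with counts) summed to 697 to 1190 CPM in batch 1 and 285 to 331 CPM in batch 2. Of 5 tested, 4 were called lower in batch 2, namely *Plin2*, *Scd1*, *Foxc1* and *Pparg*, where 21.6% of all loci were called lower. The remaining tested marker went the other way, higher in batch 2 at an unadjusted edgeR p under 0.05, and was not called. The sum was carried by *Plin2* (360 CPM on average) and the locus of *Scd1* with another transcript (141 CPM). *Aqp5*, the water channel of sweat gland cells, never exceeded 0.258 CPM, and *Atp6v1b1* and *Mc5r* were at 0 in 5 and 2 of the 12 libraries. The part of either kind of cell in the differences of the simple keratins was not tested.

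Fibroblast markers (8 genes, all with counts) summed to 461 to 477 CPM in siControl of batch 1, 541 and 1250 CPM in siSbsn, 537 and 1010 CPM without siRNA and 411 to 477 CPM in batch 2. Immune cell markers summed to 4.65 to 12.8 CPM in batch 1 and 2.04 to 3.15 CPM in batch 2, with *Cd207* at 0 in all libraries, and 3 of 3 tested were called lower in batch 2. Melanocyte markers (7 genes) summed to 742 to 930 CPM in batch 1 and 1030 to 1090 CPM in batch 2, and 3 of 7 were called higher in batch 2. Among the 7 melanocyte markers, *Pmel* (305 CPM on average) shares its locus with *Dgka*. Hair follicle markers summed to 630 to 816 CPM and endothelial markers to 2.02 to 3.47 CPM over all libraries, with 1 of 7 called lower and 1 of 3 called higher in batch 2. Over all loci 21.6% were called lower and 16.4% higher in batch 2. None of these lists had a member called between siSbsn and siControl. The part of these cells in the differences of the simple keratins was not tested.

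Across the 12 libraries the members varied together. After each batch's mean was subtracted, Pearson's r of log2(CPM + 0.5) was 0.743 for *Krt7* with *Krt8*, 0.92 for *Krt7* with *Krt18*, 0.81 for *Krt7* with *Krt19*, 0.844 for *Krt8* with *Krt18*, 0.854 for *Krt8* with *Krt19* and 0.898 for *Krt18* with *Krt19*. These values are descriptions, since the points share libraries and one normalization. Among 10938 single-gene loci tested, the loci most like *Krt7* in this measure were *Tinagl1* (0.987), *Trappc5* (0.985) and *Ndufaf6* (0.985). Those most like *Krt18* were *Tmem251* (0.97), *Snhg5* (0.969) and *Zfp639* (0.969). Those most like *Krt19* were *Pttg1* (0.975), *Acot7* (0.975) and *Ctbp1* (0.973), and those most like *Krt8* were *Hspa1l* (0.949), *Cep19* (0.946) and *Ftsj1* (0.945). None of these 12 loci is a keratin. Each was closer to its member than any other member was, but they were picked as the closest of 10938 loci. That selection nearly fixes such an order.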

How the data were processed

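RNA-Seq counts of 12 libraries were used, with conditions, batches and replicate numbers taken from the sample labels. Reads had been aligned to mm10 with STAR and the uniquely aligned ones assigned to UCSC KnownGene genes, and the authors deposited the resulting whole-number counts without normalization. Overlapping genes share a locus (4802 of 21947 loci carry several names), and the sources used here do not say whether strand was used. The 2 loci that join *Krt19* with *Krt14* or *Krt15* by a comma held 0 counts and were left out.

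Counts were normalized by TMM, filtered with filterByExpr and compared by edgeR's quasi-likelihood test (version 4.0.16, R 4.3.3), with batch and treatment as terms for both batches, and Benjamini-Hochberg q-values over all loci tested. Calls needed an absolute log2-fold change over 0.5 and q under 0.05. DESeq2 1.42.0, limma-voom (limma 3.58.1), other size factors, no filter, other sets of libraries, a replicate block and a correction for gene length (lowess span 0.3, lengths for 95.4% of loci tested) were alternatives. In batch 1 the replicate numbers 1 and 2 recur in every condition. The labels tie no number to a culture or day, but the differences between numbers 1 and 2 correlated across loci (r = 0.384, 0.811 and 0.464 for the 3 pairs of conditions), so the blocked values are given where they change a call. CPM is the count per 1000000 of the sum over filtered loci times the TMM factor. Standard errors were derived from the log2-fold change and the F statistic. Exact permutation tests used log2(CPM + 0.5) within batches. Locus starts are printed after adding 1 (49.11% then matched GENCODE, against 4.625% as given), and exonic length is that of the closest GENCODE transcript inside the locus. The correction for gene length instead used the longest GENCODE transcript of any gene named in the locus. Library totals, 27934836 to 49553923, set the counting precision, which counts of 54 to 3676 per member reflect. The tests were tried on simulated data. The members and gene lists were chosen with earlier results of these data known. Named were all members, *Sbsn*, from each list the 3 genes of highest mean CPM and up to 5 called genes of smallest q (cell type lists by sums and counts), called neighbours within 100 kb, and the 3 loci most like each member by correlation over the 12 libraries.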

Additional observations from a re-analysis of the deposited data

How the results depend on the processing

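For siSbsn against siControl over both batches, 0 members and 0 loci were called by limma-voom and by edgeR with other size factors, no filter, no batch term, all 12 libraries, no siRNA pooled with siControl, the length correction or any 1 library left out. DESeq2 called 90 loci and 1 member, *Krt18* (-0.67). Without both number 1 libraries of batch 1, chosen after seeing the data, 1 locus was called. In batch 1 alone the loci called were 0 by edgeR, 149 by DESeq2, 478 without a filter, and 5 to 3399 with 1 library left out (3399 without siControl batch 1 replicate 2), and the members called were 0 to 4 over the same fits. In batch 2 alone 1 locus was called by edgeR, 7 by DESeq2, 9 without a filter and 10 without siControl batch 2 replicate 3, and no member in any of these. For the difference between batches in the siSbsn effect, edgeR called 0 loci, DESeq2 165, no filter 17 and edgeR 4362 without siControl batch 1 replicate 2 and 411 without siSbsn batch 1 replicate 2. The members called with 1 library left out were 0 to 1, and *Krt8* ran from -0.18 to 0.48. For siControl against no siRNA, edgeR called 0 loci, DESeq2 25, no filter 815 with 1 member, *Krt18* (0.88, q = 0.0482 by edgeR), and with 1 library left out 0 to 3 members were called. For siSbsn against no siRNA no setting called a locus, and with 1 library left out *Krt7* ran from -0.46 to 0.01, *Krt8* from -0.07 to 0.09 and *Krt18* from -0.24 to 0.09. For batch 2 against batch 1 all 4 members were called lower under every alternative run. The cause of these shifts was not tested. Fits with 1 library left in a condition assume that it varies like the others.

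With the number as a replicate block, batch 1 alone gave 1808 called loci and 2 called members, *Krt7* (-0.97, q = 0.00247 by edgeR) and *Krt18* (-0.93, q = 0.00599 by edgeR), against 0 without it. The block called 0 loci in the comparison over both batches and in the 2 comparisons with no siRNA. Batch 2 has no shared numbers.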
